A study of Homo sapiens with 6 samples.

Results

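The subject is 9 genes of calcium and cation entry, taken by their names in the table of gene counts: the TRP channel genes TRPM8, TRPM4, TRPM7 and TRPV6, the store sensors STIM1 and STIM2, and the store-operated channel subunits ORAI1, ORAI2 and ORAI3. They are 9 of 35554 genes in the table, and 9 of the 9 passed the filter on low counts. RNA sequencing was performed on parental LNCaP cells (n = 3) and on LNCaP-enzaR cells (n = 3), a line that the study derived from LNCaP by continuous culture in enzalutamide, an inhibitor of androgen signaling, and then kept at a lower concentration of the drug. LNCaP is an established human line from a prostate carcinoma metastasis. Each line was grown in separate T25 flasks and harvested before confluence, and whether the drug was still in the medium at harvest is not given in the sources used here. The study's general RNA sequencing methods describe multiwell plates and starvation without serum and calcium before treatments. Whether the cells of these libraries were starved in this way is not stated there. With 1 resistant line and its parent, a difference between the groups is a difference between these lines, and resistance, drug exposure and passage cannot be told apart.

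TRP (transient receptor potential) channels are membrane pores for cations, which respond to temperature, lipids, voltage or calcium itself. Store-operated calcium entry is a separate route: when the endoplasmic reticulum loses calcium, STIM proteins in its membrane sense the loss, gather where that membrane meets the plasma membrane and open ORAI channels there. Both routes are known in the prostate epithelium, where TRPM8 is known as an androgen-responsive gene.

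The TRP gene starts differ in base composition, and the bases before the 4 TRP starts are shown because these genes include both that fell, TRPM8 and TRPM4, and 2 that did not pass the threshold. The sequences are from RefSeq (GRCh38.p14), read 5′ to 3′ on the strand of each gene, and 8 of 9 genes were matched; ORAI1 was not. Capitals mark matches on either strand to the TATA box (searched as TATAAA), to the CCAAT box (searched as those letters), to the GC box (searched as GGGCGG) and to a half-site of the androgen response element (searched as AGAACA). No matches overlapped in these windows, which are those nearest to each gene's start in the table. Each window holds the 250 bases before the RefSeq start, except that of TRPM4, which was ended at the gene start of the table and holds 199 bases. The windows are chr2:233917123-233917372 (plus strand) for TRPM8, chr19:49157542-49157740 (plus) for TRPM4, chr15:50686798-50687047 (minus) for TRPM7 and chr7:142885746-142885995 (minus) for TRPV6.
TRPM8: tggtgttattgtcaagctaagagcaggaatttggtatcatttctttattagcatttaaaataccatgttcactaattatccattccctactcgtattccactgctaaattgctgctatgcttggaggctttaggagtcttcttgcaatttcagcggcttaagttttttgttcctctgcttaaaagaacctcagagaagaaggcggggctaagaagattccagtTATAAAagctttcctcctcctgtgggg
TRPM4: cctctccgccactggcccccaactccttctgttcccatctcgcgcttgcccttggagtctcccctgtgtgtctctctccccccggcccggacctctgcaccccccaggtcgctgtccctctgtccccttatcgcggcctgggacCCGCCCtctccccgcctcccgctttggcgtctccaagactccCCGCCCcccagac
TRPM7: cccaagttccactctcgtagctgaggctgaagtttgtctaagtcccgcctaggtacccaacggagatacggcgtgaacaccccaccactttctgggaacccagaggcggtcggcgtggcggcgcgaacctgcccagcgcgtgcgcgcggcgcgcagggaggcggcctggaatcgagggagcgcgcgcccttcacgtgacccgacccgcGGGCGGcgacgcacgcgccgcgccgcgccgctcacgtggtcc
TRPV6: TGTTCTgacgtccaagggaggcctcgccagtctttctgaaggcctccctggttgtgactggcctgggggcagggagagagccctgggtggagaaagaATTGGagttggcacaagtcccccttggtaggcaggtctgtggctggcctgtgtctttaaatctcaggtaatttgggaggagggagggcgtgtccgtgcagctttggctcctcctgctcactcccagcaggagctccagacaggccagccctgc

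The TRPM8 window was the poorest in G and C of the 4, at 40.0%, against 60.4% for TRPV6, 69.2% for TRPM4 and 70.8% for TRPM7 over their 250 bases, and a median of 58.0% over 35116 windows of this length. A TATA box began 27 bases before the TRPM8 start, and 10.7% of all windows held one. GC boxes, present in 42.6% of windows, were found in the windows of TRPM4 and TRPM7 and not in those of TRPM8 and TRPV6. The TRPV6 window began with an androgen half-site, which 12.4% of windows held, and had a CCAAT box (32.0% of windows) 153 bases before the start. This TRPM8 window held no match to the half-site, but RefSeq gives TRPM8 5 further starts inside the gene, and the window of 1 of them (chr2:233979899-233980148) held a half-site. Such matches describe letters and are not evidence of binding.

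Libraries held 77759122 to 98616465 counts, and counts for the 9 genes ranged from 258 (ORAI3) to 11739 (TRPM4) per library. All 6 luminal prostate markers were detected in every library, and their summed level was 4252 to 4366 counts per 1000000 (CPM) in parental and 2817 to 3108 CPM in LNCaP-enzaR libraries, with 1 of the 6 higher and 4 lower past the threshold (adjusted p of at most 0.05 and at least 1.5-fold). KLK3, which encodes prostate-specific antigen, was at 1161 to 1238 CPM and 134 to 151 CPM in the respective groups. Leukocyte markers were under 1 CPM throughout (4 of 4), as were 2 of 3 basal and 2 of 3 endothelial markers. Endothelial markers summed to 5.47 to 6.10 CPM in parental and 3.93 to 4.35 CPM in LNCaP-enzaR libraries. The 1 endothelial marker tested was lower by the adjusted p but short of 1.5-fold (log2 fold change −0.47). The 1 basal marker tested was lower past the threshold (−1.18). Fibroblast markers summed to 14.7 to 17.9 CPM in parental and 8.21 to 8.95 CPM in LNCaP-enzaR libraries, with DCN under 1 CPM in every library. That sum was mostly COL1A1 (12.4 to 15.1 and 4.03 to 4.80 CPM), and of the 4 fibroblast markers tested 2 were higher and 1 lower past the threshold, with a median log2 fold change of 0.52. Mitochondrial genes took 6.72% to 7.06% of parental and 14.7% to 15.5% of LNCaP-enzaR counts. Without the mitochondrial genes, no log2 fold change of the 9 genes moved by more than 0.0047. The part of the luminal, basal, endothelial and fibroblast levels in the results was not tested.

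Of the 9 genes, TRPM8 and TRPM4 fell in LNCaP-enzaR and none rose, where past the threshold means an edgeR adjusted p of at most 0.05 and a change of at least 1.5-fold. TRPM8 was 6.28-fold and TRPM4 2.22-fold lower. Over all 19711 genes tested, 42.7% were past the threshold (19.5% lower and 23.3% higher), so a count of 2 in 9 is not above that of the transcriptome. By the adjusted p alone, 8 of the 9 differed, 3 higher and 5 lower, against 66.3% of all genes (33.5% higher, 32.8% lower). The 8 include TRPM7, whose adjusted p of 0.0458 was close to the limit. It was at most 0.05 in only 4 of 15 alternative analyses, and 0.0529 with DESeq2. Groups did not overlap for 7 of the 9, against 70.6% of all genes. The plot of expression by library shows the 9 genes with their spread.

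**Figure D1:**
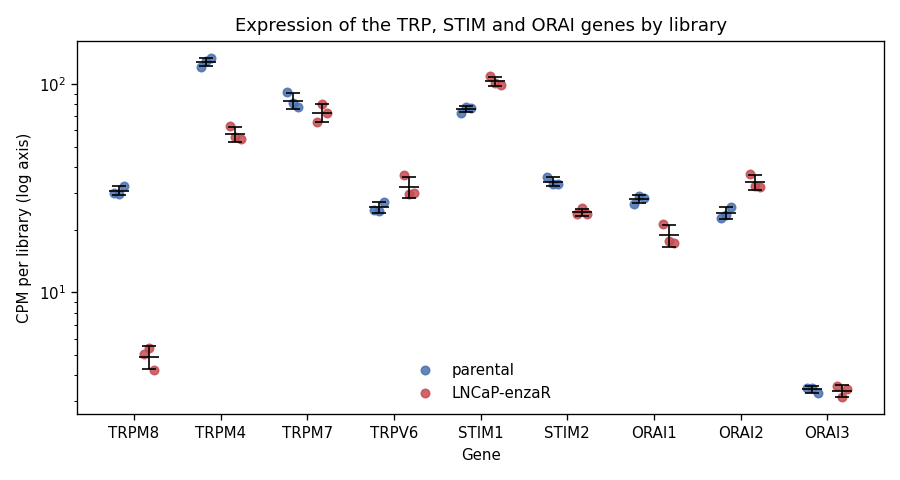
Expression of the 9 genes in CPM (log axis) in each of 3 parental (blue) and 3 LNCaP-enzaR (red) libraries, with mean and SD as bars. TRPM8 and TRPM4 lie clearly lower in LNCaP-enzaR, the TRPM7 and ORAI3 groups overlap, and the other 5 genes are set apart by less.

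TRPM8 encodes a channel opened by cold and menthol. Its level was 30.1, 29.7 and 32.5 CPM in the parental libraries and 5.06, 5.43 and 4.22 CPM in the LNCaP-enzaR libraries. Every parental library was thus above every LNCaP-enzaR library, with 2552 to 2789 counts against 419 to 480. TRPM8 (ENSG00000144481.17, chromosome 2, 233917373 to 234019522, GRCh38) differed by −2.65 ± 0.095 (SE) on the log2 scale, with an adjusted p of 1.10e-11 by edgeR's quasi-likelihood test. Only 2.60% of the genes tested had a lower log2 fold change. In bulk RNA, fewer cells with the transcript and less transcript per cell cannot be told apart. Among the 10 tested genes around TRPM8 on the chromosome, 5 on each side and described after values were seen, 3 fell and 2 rose, and their log2 fold changes had a median of −0.26. The shares past the threshold over all genes tested were 19.5% lower and 23.3% higher.

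TRPM4 encodes a channel that is opened by intracellular calcium and passes monovalent cations rather than calcium. It had the highest CPM of the 9 genes in parental cells, at 121, 129 and 133 CPM, and 63.2, 55.5 and 54.3 CPM in LNCaP-enzaR. The groups did not overlap, at 127.8 ± 6.13 and 57.7 ± 4.81 CPM (SD, n = 3 each). Its log2 fold change (ENSG00000130529.16, chromosome 19, 49157741 to 49211836) was −1.15 ± 0.068 (SE), with an adjusted p of 2.12e-09. Among the 10 tested genes around TRPM4, likewise described after values were seen, 7 fell and 0 rose. Their log2 fold changes had a median of −1.04, against 0.01 for all genes tested, of which 19.5% were lower and 23.3% higher past the threshold.

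TRPM7 encodes a channel for divalent cations such as magnesium that carries its own kinase domain. Its levels of 91.3, 80.8 and 77.2 CPM in parental and 65.9, 79.8 and 72.7 CPM in LNCaP-enzaR libraries overlapped. The log2 fold change of TRPM7 (ENSG00000092439.16, chromosome 15, 50552473 to 50686797) was −0.19 ± 0.079 (SE), with an adjusted p of 0.0458, and in 11 of 15 alternative analyses the adjusted p was above 0.05 (0.0101 to 0.327 over the alternatives). In GENCODE v44, 8.05% of its exon bases also belong to other genes.

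TRPV6 encodes a channel with high selectivity for calcium that takes up the ion in epithelia. Its level was 24.9, 24.6 and 27.2 CPM in parental and 36.4, 29.7 and 29.9 CPM in LNCaP-enzaR libraries. The lowest resistant library was above the highest parental one, and LNCaP-enzaR replicate 1 stood above the other two. TRPV6 (ENSG00000165125.22, chromosome 7, 142871208 to 142885745) differed by 0.33 ± 0.085 (SE) on the log2 scale, with an adjusted p of 0.0037, short of 1.5-fold in the reported fit and in all 15 alternatives. Its close paralog TRPV5 lies next to it and reached 0.17 CPM at most.

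The STIM sensors differed in opposite directions, both short of 1.5-fold. STIM1, the sensor that responds to strong store depletion, was at 72.9, 77.7 and 76.3 CPM in parental and 109.3, 100.9 and 98.8 CPM in LNCaP-enzaR libraries. STIM2, which responds to smaller losses and is known for basal calcium control, was at 35.9, 33.0 and 33.2 CPM in parental and 23.7, 25.3 and 23.8 CPM in LNCaP-enzaR libraries. For neither sensor did the groups overlap. The log2 fold change of STIM1 (ENSG00000167323.12, chromosome 11, 3854527 to 4093210) was 0.45 ± 0.059 (SE), with an adjusted p of 1.20e-05. That of STIM2 (ENSG00000109689.19, chromosome 4, 26857601 to 27025381) was −0.49 ± 0.067 (SE), with an adjusted p of 1.65e-05.

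The ratio of STIM2 to STIM1 counts within a library needs no scaling between libraries and combines both shifts. On the log2 scale it was −1.02, −1.24 and −1.20 in parental and −2.21, −2.00 and −2.05 in LNCaP-enzaR libraries. Each resistant library was thus below each parental one, with a difference of −0.93 between the means, or 1.91-fold (two-sided exact permutation test, p = 0.10, and 0.10 after Benjamini-Hochberg adjustment over 4 ratios). A p of 0.10 is the smallest that 3 libraries against 3 allow.

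ORAI1 encodes the subunit that forms the classical store-operated pore. It was at 26.6, 29.1 and 28.3 CPM in parental and 21.4, 17.7 and 17.3 CPM in LNCaP-enzaR libraries, without overlap. ORAI1 (ENSG00000276045.3, chromosome 12, 121626550 to 121642677) was 1.49-fold lower, just short of the limit, at −0.58 ± 0.085 (SE) on the log2 scale with an adjusted p of 3.33e-05. It was past that limit with library totals in place of TMM (−0.61), without parental replicate 1 (−0.62) and without LNCaP-enzaR replicate 1 (−0.67).

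ORAI2, a homolog that can form mixed channels with ORAI1, differed the other way. Its level was 22.8, 23.6 and 25.7 CPM in parental and 37.0, 32.3 and 32.2 CPM in LNCaP-enzaR libraries, again without overlap. ORAI2 (ENSG00000160991.17, chromosome 7, 102433106 to 102456825) differed by 0.49 ± 0.077 (SE) on the log2 scale, with an adjusted p of 5.39e-05, and passed the limit only under upper-quartile scaling (0.59) among the 15 alternatives. That scaling moved the log2 fold change of all genes by a median of 0.10. In GENCODE v44, 5.29% of the ORAI2 exon bases also lie in ALKBH4, and how shared reads were treated is not given. ALKBH4 held 1098 to 1343 counts in parental and 1074 to 1159 in LNCaP-enzaR libraries.

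ORAI3, the homolog that can also form channels gated by arachidonic acid, was the least abundant of the 9 by CPM. It was at 3.49, 3.48 and 3.28 CPM in parental and 3.53, 3.14 and 3.44 CPM in LNCaP-enzaR libraries, and the groups overlapped. The log2 fold change of ORAI3 (ENSG00000175938.7, chromosome 16, 30949068 to 30956461) was −0.02 ± 0.120 (SE), with an adjusted p of 0.883 and a sign that changed in 4 of 15 alternatives. In GENCODE v44, 52.9% of the ORAI3 exon bases also lie in the gene ENSG00000261487, which held 10 counts at most, and how shared reads were treated is not given in the sources used here.

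**Figure D2:**
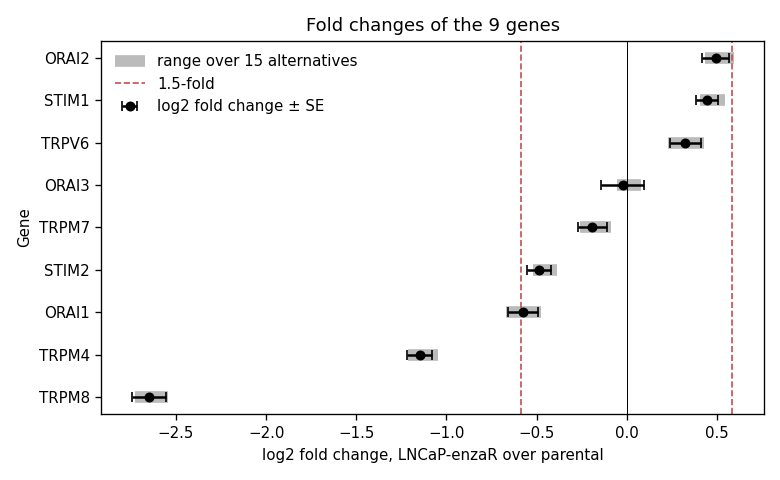
Log2 fold change of the 9 genes, LNCaP-enzaR over parental, with SE (points and bars), the range over 15 alternative analyses (gray) and the 1.5-fold limits (dashed). TRPM8 (−2.65) and TRPM4 (−1.15) lie beyond the limit in every alternative, and ORAI1 (−0.58) and ORAI2 (0.49) have gray ranges that reach it.

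The other 3 count ratios did not overlap between the groups either. ORAI3 and TRPM7 themselves overlapped, so the ratios that contain them largely repeat the differences of ORAI1 and TRPM4. The log2 ratio of ORAI2 to ORAI1 was −0.30 to −0.14 in parental and 0.79 to 0.90 in LNCaP-enzaR libraries, a difference of 1.07 or 2.10-fold (exact permutation test, p = 0.10). ORAI2 counts were thus below ORAI1 counts in each parental library and above them in each resistant one. The log2 ratio of ORAI3 to ORAI1 went from −3.03 ± 0.093 to −2.47 ± 0.134 (SD, n = 3 each), a difference of 0.56 (exact permutation test, p = 0.10). The log2 ratio of TRPM4 to TRPM7 was 0.41 to 0.79 in parental and −0.52 to −0.06 in LNCaP-enzaR libraries, a difference of −0.96 (exact permutation test, p = 0.10).

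Levels of different genes can be compared only per length, and CPM per kb of merged exons is used here first. The lengths are from GENCODE v44, in which ORAI1, alone of the 9 genes, has other coordinates than in the table. Its length may therefore not be that of the gene model counted. On this scale the parental order was TRPM4 (19.3 ± 0.928), ORAI1 (9.84 ± 0.451), TRPM7 (6.71 ± 0.593), STIM1 (6.28 ± 0.204), STIM2 (4.10 ± 0.197), TRPM8 (3.88 ± 0.188), ORAI2 (2.16 ± 0.136), TRPV6 (2.15 ± 0.122) and ORAI3 (1.29 ± 0.044) (SD, n = 3 each). The neighbors TRPM7 and STIM1, STIM2 and TRPM8, and ORAI2 and TRPV6 overlapped between libraries. In LNCaP-enzaR the order by the same quantity was TRPM4 (8.73 ± 0.729), STIM1 (8.55 ± 0.460), ORAI1 (6.61 ± 0.785), TRPM7 (5.88 ± 0.564), ORAI2 (3.04 ± 0.246), STIM2 (2.93 ± 0.108), TRPV6 (2.69 ± 0.320), ORAI3 (1.28 ± 0.079) and TRPM8 (0.619 ± 0.078). Here TRPM4 and STIM1, ORAI1 and TRPM7, ORAI2 and STIM2, and STIM2 and TRPV6 overlapped. TRPM8 went from sixth to last. The length matters for the level of TRPV6, whose merged exons span 11903 bases and whose canonical transcript has 2906: per kb of canonical transcript it was 8.80 ± 0.498 in parental and 11.02 ± 1.31 in LNCaP-enzaR cells. On that scale TRPM4 still led the parental order (31.5 ± 1.51), but STIM1 (24.7 ± 1.33) led that of LNCaP-enzaR, where TRPM8 was again last (0.869 ± 0.110).

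As a share of the summed ORAI level per kb of merged exons, ORAI1 went from 74.0% ± 0.732 to 60.4% ± 1.26 and ORAI2 from 16.3% ± 0.812 to 27.9% ± 0.483 (SD, n = 3 each). ORAI3 had 9.75% ± 0.599 and 11.7% ± 0.853. ORAI1 remained the leading subunit transcript in all 6 libraries. All ORAI shares depend on the ORAI1 length, which may not be that of the gene model counted. With canonical transcript lengths, the ORAI1 share was 83.2% ± 0.525 and 72.8% ± 1.08. STIM1 made up 60.5% ± 1.91 of the STIM level in parental and 74.5% ± 1.42 in LNCaP-enzaR cells, or 72.7% ± 1.59 and 83.6% ± 1.03 with canonical lengths. None of these shares overlapped between the groups, and each difference had an exact permutation p of 0.10, without adjustment. The STIM shares restate the ratio of STIM2 to STIM1 counts. ORAI3 itself overlapped between the groups, so its share largely repeats the differences of the other ORAI genes.

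**Figure D3:**
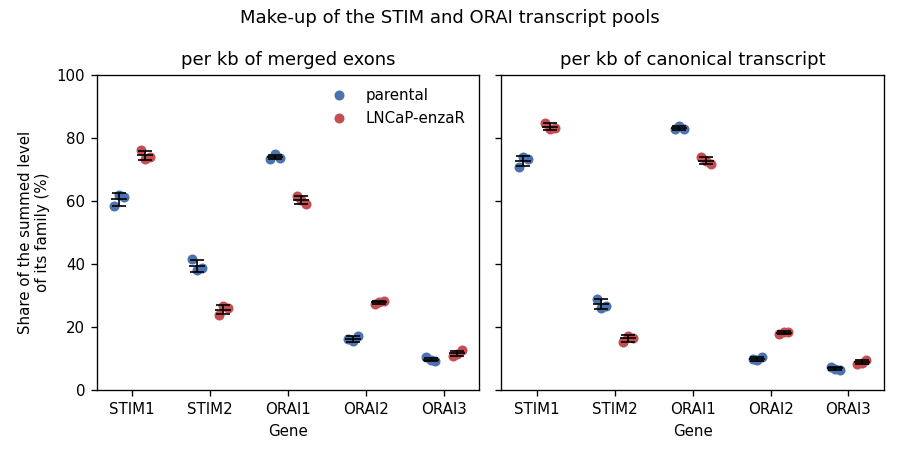
Share (%) of each STIM and ORAI gene in the summed CPM per kb of its family, per library, with mean and SD, using merged exons (left) or canonical transcripts (right) as the length. In both panels ORAI1 and STIM2 hold a smaller and ORAI2 and STIM1 a larger share in LNCaP-enzaR (red) than in parental cells (blue).

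The other genes of calcium entry, release, removal and readout were described by 9 lists of 117 genes, of which 115 were in the table and 91 were tested. Of these, 33 rose and 12 fell, together 45 of 91 against 42.7% of all genes. Over all genes tested, 23.3% were higher and 19.5% lower past the threshold, and the counts of each list below are read beside these shares. The median log2 fold change of the 91 tested genes was 0.43. Some of them were near 0 in parental cells and passed the filter through LNCaP-enzaR alone, so they could only rise.

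Among 23 other TRP channel genes, 12 were tested, of which 4 rose and 1 fell past the threshold. MCOLN2, a channel of endosomes and lysosomes, rose by 0.67 on the log2 scale, with 6.49 ± 0.506 CPM in parental and 10.3 ± 0.124 CPM in LNCaP-enzaR cells (SD, n = 3 each). TRPC1, a channel linked to store-operated currents and chosen after its values were seen, was at 0.48, 0.44 and 0.51 CPM in parental and 5.82, 5.58 and 6.33 CPM in LNCaP-enzaR libraries. On the log2 scale TRPC1 was higher by 3.64 ± 0.151 (SE), with an adjusted p of 4.60e-11. TRPM2, likewise chosen after its values were seen, was the most abundant of these genes by CPM and did not pass the test, at 61.8 ± 3.92 and 62.4 ± 8.01 CPM. TRPM3, the gene that fell, was under 1 CPM in all libraries and passed in 6 of 15 alternatives. TRPM5 had 1 count in 1 parental library, 0 in the others and 17 to 37 counts in the LNCaP-enzaR libraries. Both were named after their values were seen.

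Of the proteins that bind TRP channels, TCAF1, which promotes the delivery of TRPM8 to the cell surface, fell from 105.4 ± 3.60 to 47.5 ± 6.40 CPM (log2 fold change −1.15). PIRT, another TRPM8 partner, chosen after its values were seen, had 0 counts in the 3 parental libraries and 57 to 64 in LNCaP-enzaR, at least 19.2-fold higher. PIRT was under 1 CPM in all libraries and passed the filter through LNCaP-enzaR alone, so it could only rise. Of 8 genes listed, 5 were tested, with 1 higher (PIRT) and 2 lower past the threshold. The other gene that fell, KL, was under 1 CPM throughout.

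The regulators of ORAI and STIM were split, with 2 of 11 tested genes higher and 3 lower past the threshold. ORMDL3, a membrane protein of the endoplasmic reticulum that regulates sphingolipid synthesis, rose from 55.8 ± 1.18 to 129.03 ± 12.99 CPM (log2 fold change 1.21). ATP2C2, a secretory pathway calcium pump that can activate ORAI1, fell from 19.1 ± 0.116 to 7.66 ± 0.498 CPM (−1.32). Of the ATP2C2 exon bases, 26.2% also lie in an antisense gene. CRACR2B, a cytosolic ORAI regulator, had a log2 fold change of −0.59 and was past the threshold in 10 of 15 alternatives. CRACR2A and TMEM178A, named after their values were seen, were under 1 CPM in all libraries. CRACR2A fell, and TMEM178A had 0 or 1 count in parental and 29 to 31 counts in LNCaP-enzaR libraries.

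Of the 6 calcium release channel genes of the stores, 4 rose and 1 fell, beside 23.3% higher and 19.5% lower over all genes tested. ITPR1, an inositol trisphosphate receptor, was at 12.7, 10.9 and 12.1 CPM in parental and 88.8, 88.9 and 92.2 CPM in LNCaP-enzaR libraries. ITPR1 was thus higher by 2.92 ± 0.071 (SE) on the log2 scale, with an adjusted p of 2.52e-13. ITPR2 rose (1.83), as did the ryanodine receptor gene RYR2 (1.37), whereas ITPR3, named after its values were seen, fell (−0.63, past in 12 of 15 alternatives). Of the ITPR3 exon bases, 10.4% also lie in another gene. The other gene that rose, RYR1, was under 1 CPM in all libraries.

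Pumps and exchangers that clear calcium from the cytosol had 4 higher and 3 lower genes past the threshold among 9 tested, and 3 of the 4 higher ones, SLC8A1, SLC8A2 and SLC8A3, were under 1 CPM in all libraries. ATP2A2, the main pump that refills the endoplasmic reticulum, fell from 544 ± 17.8 to 324 ± 1.36 CPM (log2 fold change −0.75). ATP2C1, the pump of the Golgi, fell as well (−0.65), while the plasma membrane pump ATP2B1 rose from 75.6 ± 1.15 to 125.2 ± 7.08 CPM (0.73). In the mitochondrial uptake list 1 gene rose and 2 fell past the threshold out of 11, with log2 fold changes of −0.67 for the pore gene MCU, −0.62 for VDAC3 and 0.79 for the regulator MICU3. VDAC3 was close to the limit (0.585 in size), and the list had 2 to 3 genes past it when 1 library was left out.

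For the lists in this paragraph, the shares past the threshold over all genes tested were 23.3% higher and 19.5% lower. Voltage-gated calcium channel genes had 5 higher and 0 lower past the threshold of 6 tested, and CACNA1B, CACNA1G and CACNA1I among the 5 were under 1 CPM in all libraries. CACNA1D, an L-type channel gene, rose from 4.09 ± 0.108 to 19.98 ± 1.29 CPM (log2 fold change 2.29) and CACNA1H, a T-type channel gene, from 12.0 ± 0.272 to 18.3 ± 1.00 CPM (0.61). CACNA1H was close to the limit (0.585 on this scale). Voltage-gated genes past the threshold numbered 4 to 7 when 1 library was left out. Phospholipase C genes, which make the signal that opens store channels, had 5 higher and 0 lower past the threshold of 11 tested, including PLCH1 (log2 fold change 2.28) and PLCD3 (1.04). By the adjusted p alone, 6 of them were higher and 3 lower. In that list, 1 tested gene had at most 3 counts in each parental library and could only rise. Of 20 tested genes of calmodulin, calcineurin, NFAT and the calmodulin kinases, 7 were higher and 0 lower past the threshold. By the adjusted p alone, 11 were higher and 7 lower, beside 33.5% higher and 32.8% lower over all genes tested. CAMK2B, a kinase subunit whose exons overlap another gene (20.05% of bases), rose from 23.2 ± 1.19 to 103.4 ± 7.11 CPM (2.16). NFATC1, a calcineurin-dependent transcription factor, had a log2 fold change of 1.52, and RCAN2, an inhibitor of calcineurin, one of 1.22.

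**Figure D4:**
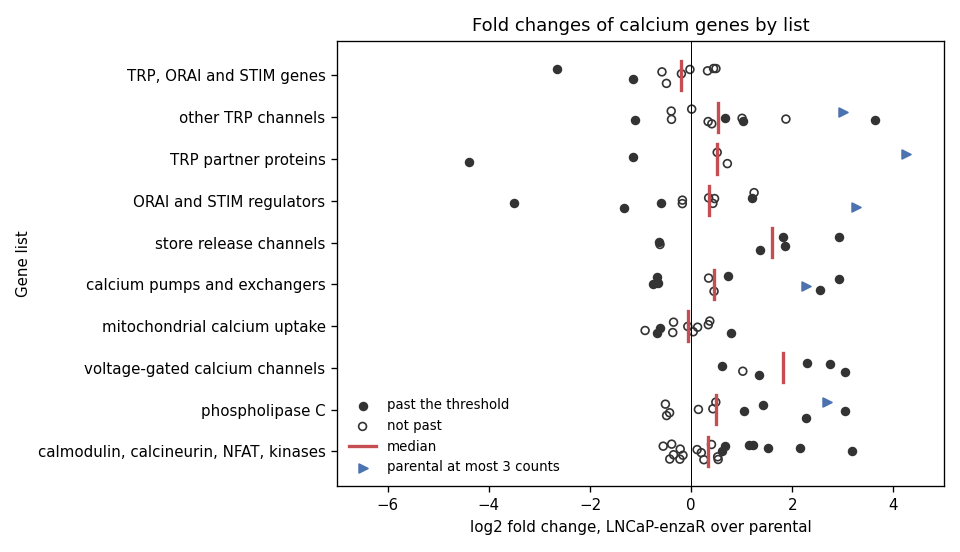
Log2 fold changes of the tested genes by list, LNCaP-enzaR over parental, with genes past the threshold filled, others open, triangles for genes with at most 3 counts in each parental library, placed at their fold against 3 counts, and list medians as red lines. The store release (median 1.60) and voltage-gated (1.82) lists lie to the right, while the 9 TRP, ORAI and STIM genes have a median of −0.19. Genes near 0 in parental cells passed the filter through LNCaP-enzaR alone and could only lie to the right. With at least 10 counts required in every library, 2 voltage-gated and 4 store release genes were past the threshold.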

How the data were processed

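RNA sequencing of 3 parental and 3 LNCaP-enzaR samples was used, grouped by sample title. According to the study's methods, the authors trimmed reads with Cutadapt, aligned them to GRCh38 with STAR and GENCODE, and ran featureCounts. The deposited values are raw counts per gene. Strand setting and treatment of shared reads are not given in the sources used here. Of the table's genes, 99.8% were found in GENCODE v44, used for exon lengths and overlaps only, and 91.4% of those had the same coordinates.

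Counts of genes kept by filterByExpr were scaled by TMM and tested with the robust quasi-likelihood F-test of edgeR 4.0.16 (R 4.3.3) without covariates, with Benjamini-Hochberg adjustment over 19711 genes. The limits (adjusted p 0.05, 1.5-fold) are those of the study's methods, whose DESeq2 (version 1.42.0 here) was an alternative. CPM are counts per 1000000 of a TMM-scaled library. A gene at 0 in every parental library is given a lower bound against 3 counts per library, which covers counting error only. Ratios and shares were tested by two-sided exact permutation of the 6 libraries. Adjusted p-values in the report are from this edgeR test, and p-values reflect the spread between the replicates of each line.

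The genes and lists were chosen with earlier results of these data known. Named genes are the 9 genes, up to 3 genes per list with the largest change past the threshold (mean of at least 5 CPM, no overlap), and the 3 genes most like the member with the highest and the lowest change past the threshold. Other genes, such as cell type markers and genes under 1 CPM, were named outside this rule, and not all of them are marked where they stand. Of 148 listed genes, 3 had no row in the table used here, and further ones were not tested because they did not pass the filter on low counts (24 of the 115 calcium genes in the table). The fit was tested on simulated counts of 18233 genes, with 98 changed 2-fold and 97 changed 1.5-fold. By the adjusted p it recovered 70.4% and 57.7% of these, or 100% and 93.2% at a mean of at least 200 counts. It made 5 false calls. Far fewer genes changed there than in the data, so scaling under a wide shift was not tested. Alternatives were DESeq2, other scalings, filters and gene sets, a replicate block, each library left out, other fold limits and 1 count added to ratios.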

Additional observations from a re-analysis of the deposited data

How the results depend on the processing

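TRPM8 (−2.73 to −2.55) and TRPM4 (−1.21 to −1.05) stayed past the threshold in all 15 alternatives. TRPM7, TRPV6, STIM1 and STIM2 kept their direction and stayed short of 1.5-fold in all 15. ORAI1 passed that limit with library totals (−0.61) and ranged from −0.67 to −0.51 over the fits that left out 1 library, the largest without LNCaP-enzaR replicate 1 and also past the limit without parental replicate 1. ORAI2 passed it with upper-quartile scaling (0.59). ORAI3 changed sign with upper-quartile scaling (0.079), with protein-coding genes only (0.00017) and with a minimum of 10 counts per library (0.00024), and ranged from −0.054 to 0.029 when 1 library was left out, with the change of sign without LNCaP-enzaR replicate 2. It was not past the threshold in any of these. The cause was not tested for these 3 genes. Members past the threshold numbered 2 to 3 when 1 library was left out, 8 with no minimum fold and 2 at 2-fold. All genes past it numbered 13074 with no minimum fold and 5561 at 2-fold, against 8425.

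Requiring at least 10 counts in every library left fewer genes to test and lowered the counts past the threshold to 1 for TRP partner proteins, 2 for ORAI and STIM regulators, 4 for pumps and exchangers and 2 for voltage-gated channels. With upper-quartile scaling, 1 gene of mitochondrial uptake was past it. Replicate numbers do not pair the libraries: deviations of same-numbered libraries correlated at −0.065 to −0.00041. A replicate block left 8212 genes past it, TRPM8 was at −2.65 and TRPM4 at −1.15, and TRPM7 had an adjusted p of 0.0775, the one call by adjusted p among the 9 that the block ended.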

Other observations

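The genes whose pattern over the 6 libraries was most like that of TRPM8 were EAF2, the long noncoding RNA RP11-17A1.3 and SPRY1. Likeness was measured as the root mean square difference of log2 CPM, each gene centered on its parental mean, and it was 0.103, 0.119 and 0.121 for these genes. EAF2, which encodes a transcription elongation factor, had 34.2 ± 0.169 CPM in parental and 5.12 ± 0.330 CPM in LNCaP-enzaR cells (SD, n = 3 each), with a log2 fold change of −2.74. SPRY1, which encodes an inhibitor of receptor tyrosine kinase signaling, went from 72.9 ± 2.19 to 11.8 ± 0.316 CPM (−2.62). For TRPM4, the most alike genes were UBE2S, TXNRD2 and TCF3, with differences of 0.026, 0.030 and 0.032. UBE2S, a ubiquitin-conjugating enzyme of mitotic exit, went from 360.9 ± 15.4 to 162.6 ± 16.9 CPM (log2 fold change −1.15).

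The neighbors of the other genes on their chromosomes were described after values were seen. They are 5 tested genes on each side in order of start, whatever their distance. Their spans differ widely, with 25648011 to 37623495 for STIM2 and 30778456 to 31010638 for ORAI3. Of the 10 tested genes around STIM1, 3 were lower and 0 higher past the threshold (median log2 fold change −0.40), opposite in sign to STIM1 itself. Around ORAI1 3 were lower and 0 higher (−0.30), and around TRPV6 5 were higher and 0 lower (0.55). Around ORAI2 the median was −0.09, with 4 higher and 1 lower. Around STIM2 4 were higher and 2 lower (0.11), around ORAI3 3 were higher and 0 lower (0.15), and around TRPM7 1 was higher and 1 lower (0.17). Over all genes tested, 23.3% were higher and 19.5% lower past the threshold. In the window of STIM1 nearest to the gene start of the table, 2 androgen half-sites were found, 182 and 49 bases before the RefSeq start. The other 3 RefSeq windows of STIM1 held 0 half-sites and 8, 2 and 8 GC boxes, some of which overlap each other.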
